A study of Mus musculus with 18 samples.

Results

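The transcripts described here are those of 7 genes that belong to the machinery with which astrocytes move water and potassium at their endfeet, the processes that contact blood vessels. The members were taken as listed genes of the deposited count table, out of 54838 genes in all, and all 7 had their row in the table and passed the filter on low counts in a total of 18 libraries. They are *Aqp4*, which encodes the main water channel of the brain, *Kcnj10* and *Kcnj16*, which encode a pair of inward rectifier potassium channel subunits, *Dag1* and *Dtna*, which encode dystroglycan and alpha-dystrobrevin of the dystrophin complex, and *Mlc1* and *Hepacam*, which encode membrane proteins of astrocyte junctions. All cells were wild type C57BL/6J mouse cells. Neural stem cells were taken from the ventricular zone of single brains at embryonic day 14 and were grown as neurospheres (NSPs) with EGF at 20 ng/ml, the first of 6 conditions. The other conditions were cells that had differentiated in medium with 10% fetal bovine serum for 24 h or for 72 h, in each case untreated or treated with 50 ng/ml TNF, and untreated cells that had differentiated for 1 week. Each condition had 3 libraries of total RNA, here called replicates 1, 2 and 3 as in the labels. The study's methods describe its data in general as coming from independent biological experiments, but neither they nor the labels say whether replicates of a condition here came from separate brains, so p-values measure the spread between these cultures, which may be technical. The lists of microglia, endothelial, and pericyte and fibroblast markers each summed to at most 7.61 CPM in any library, so little RNA of vessels was present and the genes are described in cultured cells without endfeet on vessels.

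In brain tissue AQP4 is concentrated in the endfoot membrane, where the dystrophin complex anchors it, and the complex is tied by dystroglycan to laminin, agrin and perlecan of the basement membrane. KCNJ10 carries the potassium current by which glia clear potassium released by neurons, and KCNJ16 joins it in mixed channels. HEPACAM brings MLC1 to the contacts between astrocytes, and loss of either protein causes a leukoencephalopathy with swollen white matter. Messenger RNA levels show none of this placement in the membrane, and only transcript levels were measured.

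Each level is given in CPM, the count relative to the TMM-scaled size of its library, and levels of different genes were compared only as RPKM, that is CPM per kilobase of annotated exon. Differences were tested with edgeR's quasi-likelihood test in 1 fit over 18 libraries and 20067 genes, and a gene is said to pass at a p-value under 0.05 after Benjamini-Hochberg adjustment. Total counts ran from 12509693 to 22549627 per library, and the lowest level of any member in any library was 55.6 CPM. *Nfkbia*, a direct target of TNF signaling, was at 135 to 161 CPM in the 6 TNF libraries and at 16.04 to 30.4 CPM in the others, so the treated and untreated libraries separated as labelled. Replicate 1 of both TNF groups stood apart from replicates 2 and 3 (chi-square per degree of freedom of 49.7 to 62.7, against 9.06 and 12.5 between replicates 2 and 3), and NSP replicate 1 did so among the NSPs (46.1 and 52.8, against 4.08). Counts of members that passed, and the members' calls that these libraries change, are given with and without them. All 9 astrocyte markers checked had a mean of at least 1 CPM in every condition, but they did not move together. The mean of *Gfap* was 27.1 CPM in NSPs, 2432 CPM at 72 h and 63.4 CPM at 1 week, whereas *Aldh1l1* was at 12.9 CPM in NSPs and 3.58 CPM at 1 week. All 5 tested markers of motile ciliated ependymal cells were higher at 72 h, with sums of 257 to 349 CPM against 21.2 to 35.1 CPM in NSPs, and 5 of 6 tested oligodendrocyte lineage markers were lower, with sums of 61.6 to 70.5 CPM against 617 to 970 CPM. The part of such shifts in the results below was not tested.

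Against NSPs, 6 of the 7 genes passed the test at 24 h, 5 of them higher and *Kcnj16* lower, where 52.7% of all genes tested passed, 27.2% higher and 25.5% lower. At 72 h all 7 were higher than in NSPs, where 55.3% of all genes passed and 28.1% were higher. At 1 week 5 were higher and *Aqp4* and *Kcnj16* did not pass, where 58.6% of all genes passed, 29.6% higher and 29.1% lower. The median log2 fold change of the members was 0.62 at 24 h, 1.29 at 72 h and 0.79 at 1 week, beside medians of 0.06, 0.05 and 0.06 over all genes tested. Without NSP replicate 1 the numbers that passed were 5, 7 and 4. These 3 comparisons share the NSP libraries and are not independent of each other.

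**Figure D1:**
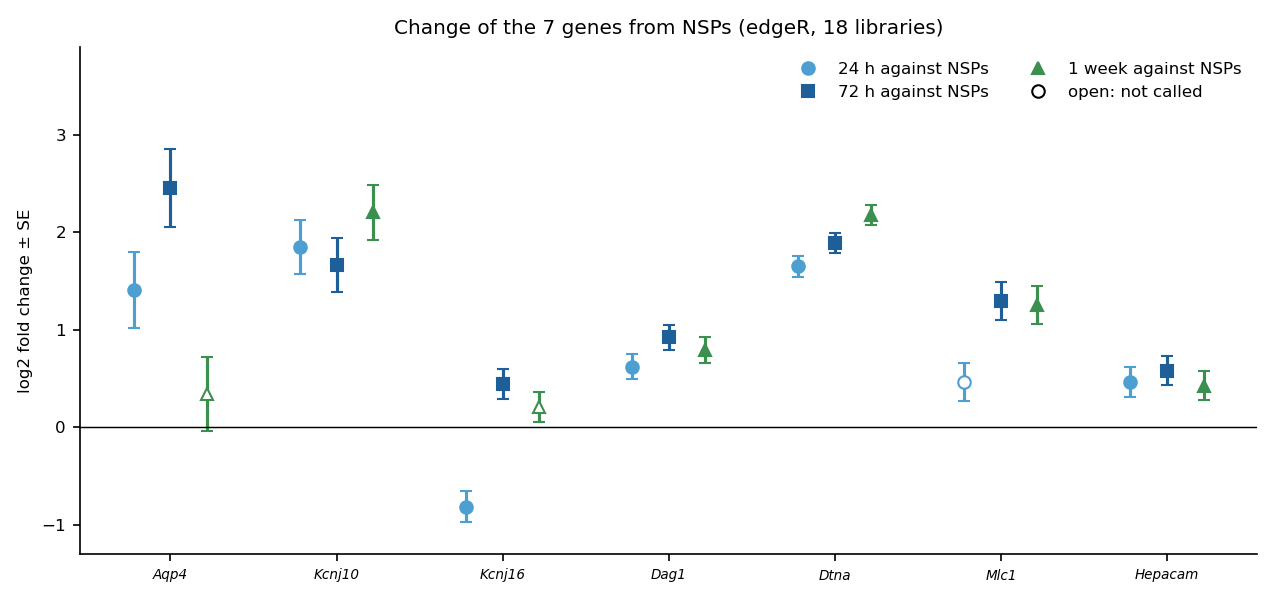
Log2 fold change of each member from NSPs (y axis) at 24 h, 72 h and 1 week, with the standard error of the edgeR fit as whiskers. Filled points passed the test and open points did not. All 7 points at 72 h lie above 0, *Kcnj16* at 24 h is the lone point below 0, and *Aqp4* falls from 2.46 at 72 h to 0.34 at 1 week.

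*Aqp4* (chromosome 18, minus strand, 15389496 to 15410982 on GRCm38) rose and fell again over the week. In NSPs it was at 55.6, 208 and 213 CPM in replicates 1 to 3, at 24 h at 451, 428 and 385 CPM, and at 72 h at 665, 996 and 954 CPM. At 1 week it was at 209, 184 and 210 CPM. The 24 h and 72 h libraries lay above every NSP library, and the 1 week libraries overlapped replicates 2 and 3 of the NSPs. The level was 2.65-fold that of NSPs at 24 h (log2 1.41 ± 0.39 SE, adjusted p = 0.00537) and 5.48-fold at 72 h (log2 2.46 ± 0.40, adjusted p = 4.3e-05). From 72 h to 1 week it fell by 2.12 on the log2 scale (± 0.39 SE, adjusted p = 0.00254), so that 72 h stood 4.34-fold above 1 week. It was the 1 member of 7 that passed between these times, where 6.63% of all genes did, 2.68% higher and 3.96% lower at 1 week. The rise from 24 h to 72 h, with no overlap of the groups, was 1.05 ± 0.38 on the log2 scale and did not pass (adjusted p = 0.0525), and it passed without 72 h replicate 1 (adjusted p = 0.0423), with the compared groups alone and with no filter on low counts (8.29e-11 to 0.19 over the alternatives). The SE with no filter was 0.15, against 0.38 in the main fit. Without NSP replicate 1, the low library, the changes from NSPs were 1.00 at 24 h and 2.05 at 72 h, both past the threshold, and -0.07 at 1 week (adjusted p = 0.859).

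The libraries in which *Aqp4* was out of line with its group were out of line in the same direction in *Gfap* and *Gja1*, but not in every member. In the 24 h TNF group *Aqp4* was at 1056 CPM in replicate 1 against 478 and 459 CPM in replicates 2 and 3, and *Gfap* was at 1871 CPM against 463 and 597 CPM. *Gja1*, which encodes connexin 43 of astrocyte gap junctions, was at 330 CPM there against 54.7 and 56.2 CPM. Replicate 1 was also the highest of its group in these 3 genes at 72 h with TNF, with *Aqp4* at 922 CPM against 556 and 458 CPM and *Gfap* at 1022 CPM against 217 and 229 CPM. *Mlc1* was lowest in replicate 1 of both TNF groups, at 1032 CPM against 1158 and 1305 CPM at 24 h and at 909 CPM against 1499 and 1625 CPM at 72 h. NSP replicate 1 was the lowest of its group in *Aqp4*, *Gfap* and *Gja1*, with *Gfap* at 11.6 CPM against 37.3 and 32.4 CPM, and the highest of it in *Kcnj10* (149 CPM) and *Kcnj16* (157 CPM). In bulk RNA fewer cells with a transcript and less of it per cell cannot be told apart.

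**Figure D2:**
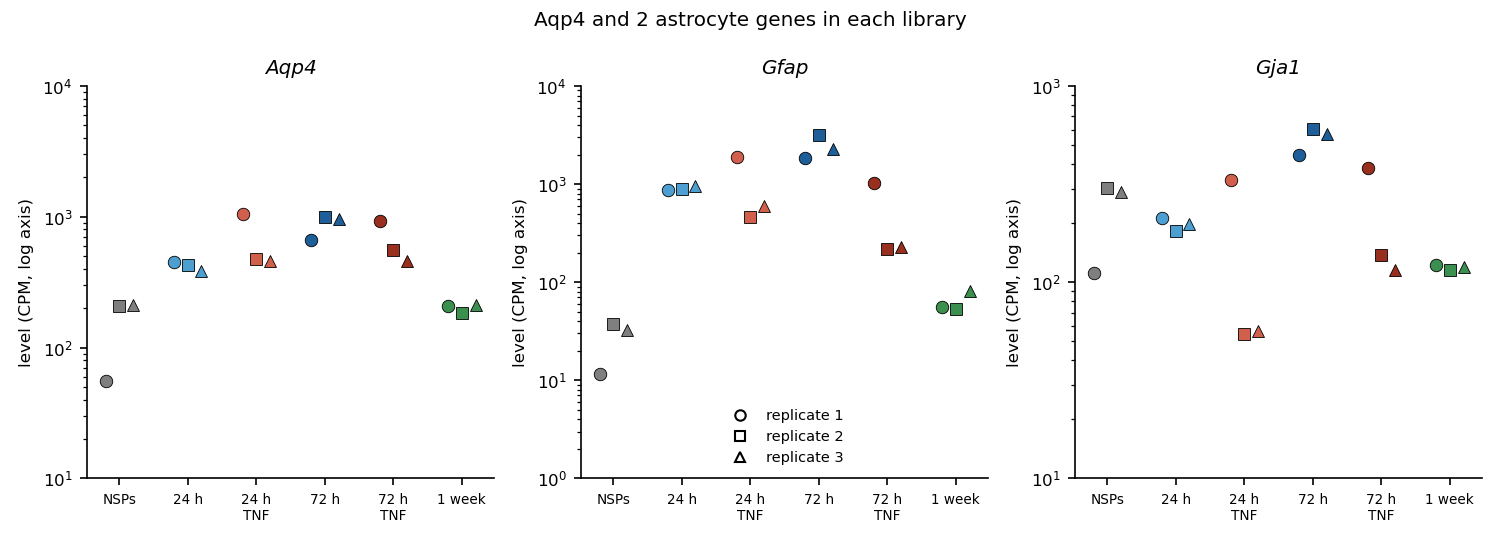
Level in CPM (log y axis) of *Aqp4*, *Gfap* and *Gja1* in each of the 18 libraries by condition, with 1 symbol per replicate number. Replicate 1 (circle) is the highest of both TNF groups and the lowest of the NSPs in each panel.

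*Kcnj10* (chromosome 1, plus strand, 172341210 to 172374085) and *Kcnj16* (chromosome 11, plus strand, 110968033 to 111027968) encode subunits that combine in 1 channel, and they moved in opposite directions at 24 h. Since this is where the pair parted, the stretches before their first annotated starts are shown from RefSeq (GRCm38.p6), 5′ to 3′ on the strand of the gene, at chr1:172340960-172341209 for *Kcnj10* and chr11:110967783-110968032 for *Kcnj16*. Capitals mark matches to the GC box GGGCGG or to the STAT motif TTCNNNGAA on either strand.
Kcnj10: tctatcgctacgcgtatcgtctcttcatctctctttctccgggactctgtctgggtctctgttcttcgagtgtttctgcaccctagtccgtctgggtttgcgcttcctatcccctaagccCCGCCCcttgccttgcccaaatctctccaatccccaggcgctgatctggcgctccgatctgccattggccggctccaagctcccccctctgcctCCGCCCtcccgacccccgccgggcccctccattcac
Kcnj16: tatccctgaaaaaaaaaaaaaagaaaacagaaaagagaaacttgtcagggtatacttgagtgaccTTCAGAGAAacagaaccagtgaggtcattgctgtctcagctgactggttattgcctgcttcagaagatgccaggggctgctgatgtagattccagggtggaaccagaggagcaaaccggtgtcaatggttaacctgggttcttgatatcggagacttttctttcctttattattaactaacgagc
The *Kcnj10* stretch held 62.0% G and C and 17 CpG, with GC box matches that begin 130 and 36 bases before the start, and the *Kcnj16* stretch, the first of its 4 windows, held 42.8% and 3 CpG, with 1 STAT match. The last of these windows held a GC box that begins 46 bases before its start. Over 32851 windows of 250 bases before RefSeq starts the medians were 52.4% and 6 CpG, and a GC box was in 32.7% and a STAT match in 7.02% of them. Of the 9 windows found for the members 4 held a GC box and 1 a STAT match, and 2 of the 4 are overlapping windows of *Dag1* that hold the same 3 GC boxes. The AP-1 motif TGANTCA (6.75% of windows) and the NF-kB motif (3.9%), both searched on both strands, had no match in these 9 windows, which belong to 5 members and not to *Aqp4* or *Dtna*. No matches overlapped each other in the stretches shown. A match is a run of letters and not evidence of binding.

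*Kcnj10* rose at 24 h and stayed high. It was at 149, 112 and 99.05 CPM in NSPs, at 444, 301 and 552 CPM at 24 h, at 507, 349 and 287 CPM at 72 h and at 458, 817 and 384 CPM at 1 week. Every library of differentiated cells without TNF lay above every NSP library, and the 3 groups of differentiated cells overlapped. The level was above that of NSPs by 1.85 ± 0.28 on the log2 scale at 24 h (adjusted p = 2.88e-05), 3.17-fold at 72 h (log2 1.66 ± 0.28) and 4.61-fold at 1 week (log2 2.20 ± 0.28). Neither step between the differentiated times passed (log2 -0.18 and 0.54, adjusted p = 0.677 and 0.292).

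*Kcnj16* dipped at 24 h. It was at 157, 126 and 134 CPM in NSPs, at 84.6, 77.4 and 74.6 CPM at 24 h, at 172, 188 and 206 CPM at 72 h and at 162, 146 and 174 CPM at 1 week. The 24 h libraries lay below all others without TNF, and the 1 week libraries overlapped both the NSPs and the 72 h libraries. The fall at 24 h was 0.82 on the log2 scale (± 0.16, adjusted p = 0.00032), and the rise from 24 h to 72 h was 2.40-fold (log2 1.26 ± 0.16, adjusted p = 1.32e-05). At 72 h it passed as higher than in NSPs (log2 0.44 ± 0.16, adjusted p = 0.0223), and that call was lost without NSP replicate 2 (0.0916), NSP replicate 3 (0.0679) or 72 h replicate 3 (0.0789), and with the replicate number as a block and 72 h replicate 3 unpaired (0.109), with a range of 0.00599 to 0.109 over the alternatives.

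The balance of the transcripts of the pair differed between times within each library. Per length, *Kcnj16* was at 1.45, 1.54 and 1.86 times *Kcnj10* in NSPs and at 0.262, 0.353 and 0.185 times at 24 h. The ratio was 0.467, 0.742 and 0.984 at 72 h and 0.484, 0.246 and 0.624 at 1 week. In NSPs *Kcnj16* was the higher of the pair in all 3 libraries, and in all 9 libraries differentiated without TNF *Kcnj10* was.

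**Figure D3:**
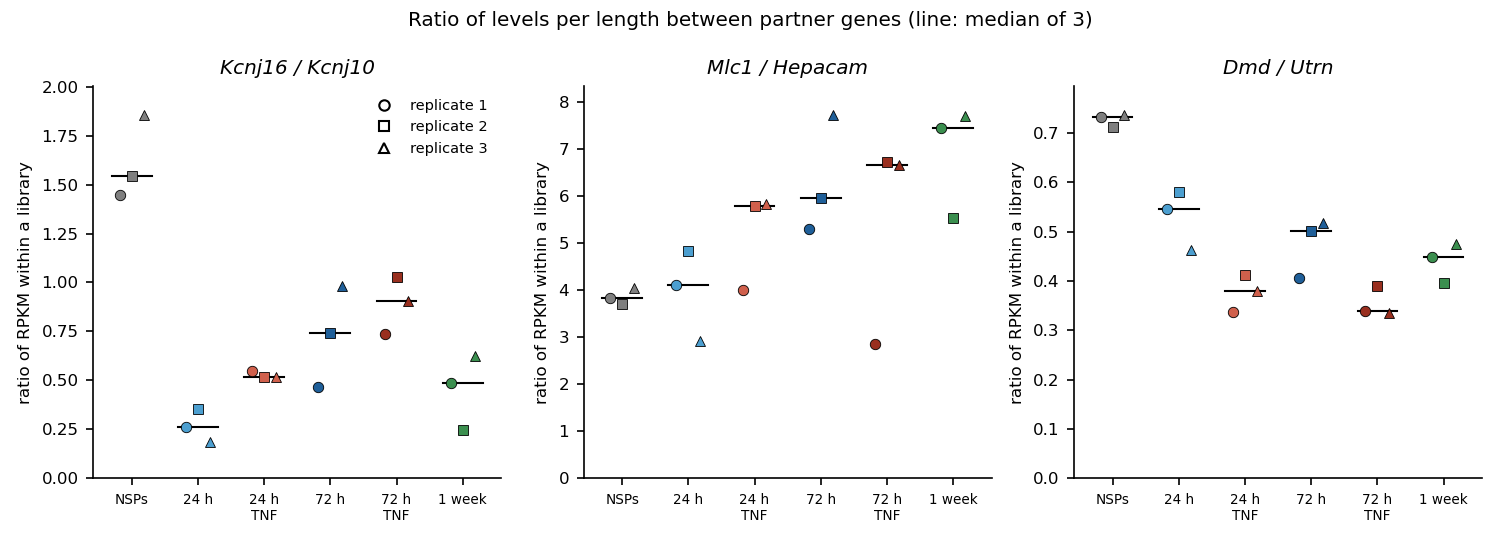
Ratio of RPKM between 2 genes within a library (y axis, linear from 0) for *Kcnj16* over *Kcnj10*, *Mlc1* over *Hepacam* and *Dmd* over *Utrn*, by condition, with 1 symbol per replicate and a line at the median. *Kcnj16* over *Kcnj10* drops from a median of 1.54 in NSPs to 0.262 at 24 h, and *Dmd* over *Utrn* is highest in NSPs, at 0.712 to 0.736.

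*Dag1* (chromosome 9, minus strand, 108204634 to 108263958) encodes the single precursor of alpha- and beta-dystroglycan, and its fold changes from NSPs at 24 h and 72 h were below those of *Aqp4* and *Kcnj10*, though above that of *Aqp4* at 1 week. It was at 294, 299 and 287 CPM in NSPs, at 440, 398 and 515 CPM at 24 h, at 588, 566 and 511 CPM at 72 h and at 472, 578 and 472 CPM at 1 week. No differentiated library reached down to the NSPs. The level was 1.54-fold that of NSPs at 24 h (log2 0.62 ± 0.13, adjusted p = 0.000671), 1.89-fold at 72 h and 1.73-fold at 1 week, and no step between the differentiated times without TNF passed.

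*Dtna* (chromosome 18, plus strand, 23415135 to 23659715), whose product binds dystrophin inside the cell, was higher at each later time. It was at 146, 170 and 170 CPM in NSPs, at 525, 481 and 518 CPM at 24 h, at 623, 607 and 568 CPM at 72 h and at 707, 741 and 750 CPM at 1 week. No libraries overlapped between successive times. The log2 fold change from NSPs was 1.65 ± 0.10 at 24 h (adjusted p = 9.62e-10), 1.89 ± 0.11 at 72 h and 2.18 ± 0.11 at 1 week, which is 4.52-fold. The steps from 24 h to 72 h (0.24 ± 0.10, adjusted p = 0.0979) and from 72 h to 1 week (0.29 ± 0.10, adjusted p = 0.102) did not pass in edgeR, and both passed in DESeq2 alone among the alternatives (adjusted p = 0.0231 and 0.0152). An annotated antisense gene, Gm47898, shares 90 exon bases or 0.5% of the exon length of *Dtna*, and without the strand setting of the counting reads of the pair cannot be told apart there.

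*Mlc1* (chromosome 15, minus strand, 88955884 to 88979007) was the highest member per length in every condition, with between 53.0% and 64.4% of the summed RPKM of the 7 genes. It was at 749, 924 and 929 CPM in NSPs, at 1191, 1344 and 1056 CPM at 24 h, at 1674, 2203 and 2503 CPM at 72 h and at 2290, 1816 and 2092 CPM at 1 week. The 24 h libraries lay between the NSPs and the 72 h libraries without overlap. The first step, 0.46 ± 0.19 on the log2 scale, did not pass (adjusted p = 0.0511; 0.0152 to 0.167 over the alternatives, 6 of which passed), and the step from 24 h to 72 h passed (0.83 ± 0.19, adjusted p = 0.00386). With *Kcnj16* it was 1 of 2 members that passed as higher at 72 h than at 24 h, where 24.8% of all genes passed, 12.2% higher and 12.6% lower. *Mlc1* was 2.45-fold the NSP level at 72 h (log2 1.29 ± 0.20) and 2.38-fold at 1 week.

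*Hepacam* (chromosome 9, plus strand, 37367351 to 37386575) had the smallest rise of the members at 72 h apart from *Kcnj16*. It was at 233, 298 and 275 CPM in NSPs, at 347, 331 and 431 CPM at 24 h, at 377, 441 and 387 CPM at 72 h and at 367, 392 and 324 CPM at 1 week. The differentiated groups overlapped each other, and all their libraries without TNF lay above the NSPs. The level was 1.38-fold that of NSPs at 24 h (log2 0.46 ± 0.15, adjusted p = 0.0162), higher by 0.58 ± 0.15 on the log2 scale at 72 h (adjusted p = 0.00326) and 1.34-fold at 1 week (log2 0.43 ± 0.15, adjusted p = 0.022). The 24 h call was lost without NSP replicate 1 (0.0712) or 24 h replicate 3 (0.111), and the 1 week call without NSP replicate 1 (0.0925) or 1 week replicate 1 (0.054) or 2 (0.0822). Over the alternatives the adjusted p ran from 0.00695 to 0.111 at 24 h and from 0.00847 to 0.0925 at 1 week. Per length, *Mlc1* was at 3.70 to 4.04 times *Hepacam* in NSPs, at 2.92 to 4.85 times at 24 h, at 5.30 to 7.73 times at 72 h and at 5.54 to 7.72 times at 1 week. At 72 h with TNF it was at 2.86 to 6.72 times.

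**Figure D4:**
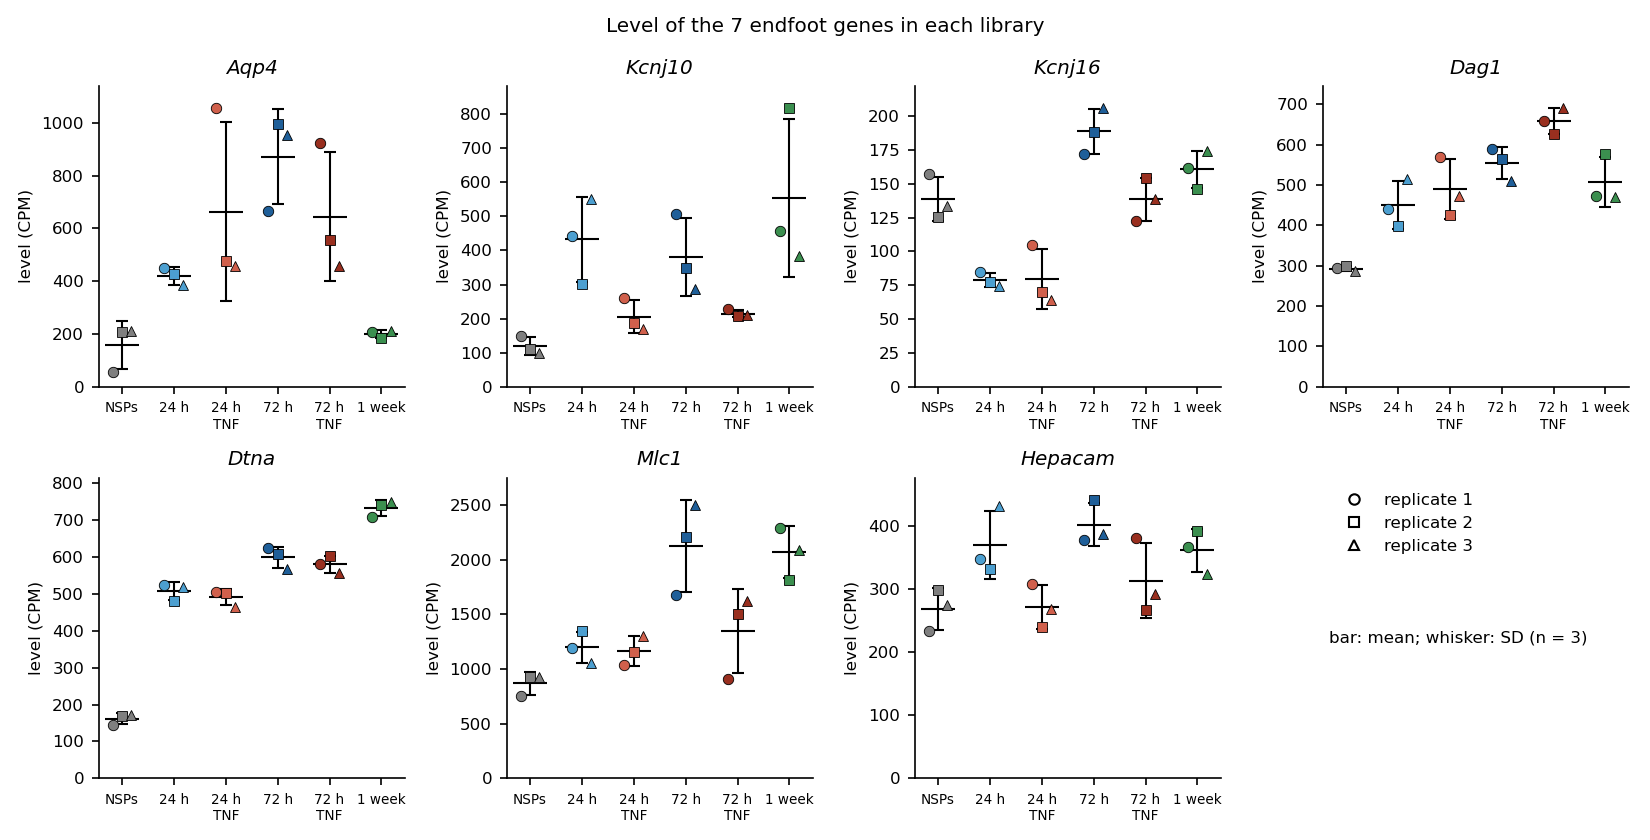
Level in CPM (linear y axis from 0) of the 7 genes in every library by condition, with the mean as a bar and the SD as whiskers (n = 3) and 1 symbol per replicate. *Dtna* has little spread and is highest at 1 week, *Kcnj16* is lowest at 24 h with and without TNF, and the spread of *Aqp4* is widest in both TNF groups and at 72 h.

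The members differed in how closely replicates of a condition lay together. The pooled SD within conditions, in log2 CPM, was 0.08 for *Dtna*, 0.14 for *Dag1*, 0.19 for *Hepacam*, 0.20 for *Kcnj16*, 0.26 for *Mlc1*, 0.39 for *Kcnj10* and 0.59 for *Aqp4*, beside a median of 0.29 over all genes tested. *Aqp4* and *Kcnj10* lay above this median and the other 5 below it. Patterns over the 18 libraries were also compared with those of 16439 other genes by the root mean square difference in centered log2 CPM. The nearest genes to *Aqp4* were *Kcnc2* (0.39), *Plscr4* and *Usp35*, and those nearest to *Kcnj10* were *Garnl3* (0.27), *Dpysl5* and *Ppp1r13b*. For *Kcnj16* they were *Jade1* (0.17), *Ogg1* and *Tsc22d3*, for *Dag1* *Fam13c* (0.14), *Zbtb44* and *Rpgrip1l*, and for *Dtna* *Cachd1* (0.13), *Megf9* and *Braf*. For *Mlc1* they were *Bbs1* (0.13), *Adipor2* and *Psap*, and for *Hepacam* *Mgrn1* (0.12), *Tbc1d22b* and *Mboat7*. Members were not candidates in this search. Between members the difference ran from 0.35 (*Dag1* and *Hepacam*) to 1.23 (*Aqp4* and *Kcnj10*), with 0.44 for *Mlc1* and *Hepacam* and 0.90 for *Kcnj10* and *Kcnj16*. The median difference from all genes compared ran from 0.50 for *Hepacam* to 1.14 for *Aqp4*.

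Most tested genes of the rest of the dystrophin complex were higher than in NSPs, as *Dag1* and *Dtna* were. Of 15 listed genes 13 were tested, and at 24 h 9 had risen from NSPs and none had fallen (median log2 fold change 0.77), where 27.2% of all genes were higher and 25.5% lower. At 72 h and at 1 week 8 were higher and 1 lower, where 28.1% and 29.6% of all genes were higher. From 24 h to 72 h 3 of the 13 were higher and 5 lower (median log2 fold change -0.26), where 12.2% of all genes were higher and 12.6% lower. From 72 h to 1 week 1 was higher and 4 lower (median 0.03), where 2.68% of all genes were higher and 3.96% lower. *Utrn*, which encodes utrophin, rose from 196 ± 5.13 CPM to 542 ± 40.5 CPM at 24 h (log2 1.47 ± 0.11), and *Dmd*, its paralogue dystrophin, from 198 ± 6.98 CPM to 396 ± 22.3 CPM (log2 1.00 ± 0.11). Per length *Dmd* was at 0.712 to 0.736 times *Utrn* in NSPs and below that range in all later libraries, and the counts do not separate the short glial form of dystrophin from the long ones. *Sntg2*, a syntrophin gene, had means of 1.27 CPM in NSPs, 22.2 CPM at 72 h and 5.27 CPM at 1 week (log2 -2.07 ± 0.35 against 72 h).

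All 12 listed genes for the ligands of dystroglycan were tested. At 24 h 3 were higher and 3 lower than in NSPs, shares near those of all genes (27.2% and 25.5%). At 72 h 2 were higher and 7 lower (median log2 fold change -0.82), where 28.1% of all genes were higher and 27.2% lower. At 1 week 4 were higher and 5 lower, where 29.6% of all genes were higher, a share near that of the ligands, and 29.1% lower. *Lamb2*, the laminin beta-2 chain, rose from 106 to 309 CPM at 72 h (log2 1.54), whereas *Lamb1* fell from 125 to 28.4 CPM (log2 -2.13) and *Agrn*, agrin, from 490 to 259 CPM (log2 -0.92). *Lama1*, the laminin alpha-1 chain, was at 10.3 CPM in NSPs and 1.34 CPM at 24 h (log2 -2.92). *Slit2*, whose product also binds dystroglycan, fell from 23.2 to 11.7 CPM at 24 h and rose to 41.8 CPM at 72 h. Enzymes that build the sugar chains by which dystroglycan holds laminin were lower at 24 h in 11 of 18 tested genes and higher in 2 (median log2 fold change -0.37), where 25.5% of all genes were lower and 27.2% higher. *Pomt1*, which starts these chains, fell from 52.6 to 24.3 CPM (log2 -1.11). *Gmppb* (log2 -0.57) and *Dpm3* (-0.78, with overlapping groups), which serve the supply of mannose, fell as well. Of the other *Dpm* genes listed, *Dpm1* rose (0.41, adjusted p = 0.0288) and *Dpm2* did not pass (-0.33). *Large2* rose (1.05). At 72 h 5 of the 18 were lower, a share near the 27.2% of all genes, and 2 higher.

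Per length *Aqp4* had a mean of 25.5 RPKM or more in every condition, and no other aquaporin gene had a mean above 3.11 RPKM. Of these 11 genes 4 passed the filter on low counts, and 2 were higher than in NSPs at 24 h (*Aqp5* and *Aqp11*) and 2 at 72 h (*Aqp1* and *Aqp9*), where 27.2% and 28.1% of all genes were higher. *Aqp5* went from 0.23 to 1.22 CPM and *Aqp1* from 0.14 to 0.57 CPM, so both stayed near the floor. *Aqp11*, an aquaporin of internal membranes, was at 9.52 CPM in NSPs, rose to 28.7, 31.4 and 27.8 CPM at 24 h (log2 1.62 ± 0.19) and was back at 9.37 CPM at 72 h. *Aqp9*, which also passes glycerol, rose from 3.03 to 7.53 CPM at 72 h (log2 1.30) and was at 8.48 CPM at 1 week. Of 16 other potassium channel genes 9 were tested, and 4 were higher and 2 lower at 24 h and at 72 h, and 5 higher and 3 lower at 1 week, where 52.7%, 55.3% and 58.6% of all genes passed in either direction. Per length none had a mean above 4.66 RPKM, where that of *Kcnj10* was 22.2 RPKM or more. *Kcnk2*, a leak channel gene, was at 1.42 CPM in NSPs and 23.04 CPM at 72 h (log2 3.99 ± 0.41), and its relative *Kcnk10* fell from 5.44 to 1.31 CPM (log2 -2.06). *Kcnj9* and *Kcnj4*, inward rectifier genes, stood highest at 1 week, at 8.90 and 6.55 CPM.

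Among 13 further ion, volume and junction genes 12 were tested, and by 72 h 6 had risen from NSPs and 2 had fallen (median log2 fold change 0.96), where 28.1% of all genes were higher and 27.2% lower. *Gpr37l1*, a receptor gene whose product is found with MLC1 and HEPACAM, rose from 77.8 to 370 CPM at 72 h (log2 2.25 ± 0.35) and fell to 164 CPM at 1 week (-1.17 ± 0.34 against 72 h). *Atp1b1*, a beta subunit of the sodium pump, rose from 37.0 to 176 CPM at 72 h (log2 2.25 ± 0.19). From 72 h to 1 week 4 of the 12 were lower and 1 higher, where 3.96% and 2.68% of all genes were, and *Gja1* was among the lower, at 445, 604.2 and 569 CPM against 123, 116 and 119 CPM (log2 -2.18 ± 0.56, adjusted p = 0.0228). This is the step in which *Aqp4* fell and the other 6 members did not pass. In the same step 5 of 9 astrocyte markers were lower and 1 higher, with sums of 2856 to 3335 CPM against 5305 to 7408 CPM. The mean of *Gfap* alone went from 2432 to 63.4 CPM. The part of such shifts in the fall of *Aqp4* was not tested.

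In cells treated with TNF, 1 member passed as lower at each time. At 24 h it was *Kcnj10*, the 1 of 7 that passed where 3.5% of all genes did, 2.18% higher and 1.32% lower, and at 72 h it was *Mlc1*, where 9.56% of all genes passed and 5.21% were lower and 4.35% higher. The median log2 difference of the members between TNF and no TNF was -0.04 at 24 h and -0.43 at 72 h, beside -0.01 over all genes at both times. No member passed as higher.

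*Kcnj10* was at 262, 186 and 170 CPM at 24 h with TNF, all below the 301 to 552 CPM without it, and at 228, 207 and 210 CPM at 72 h with TNF, all below the 287 to 507 CPM without it. The difference was -1.07 ± 0.27 on the log2 scale at 24 h (adjusted p = 0.0348) and -0.83 ± 0.27 at 72 h, which did not pass (adjusted p = 0.064). With TNF the level still lay above every NSP library at both times. The 24 h call was lost without 24 h replicate 1 (0.108) or 3 (0.199), without 24 h TNF replicate 2 (0.127) or 3 (0.117), and where only genes with at least 10 counts in every library were fitted (0.0555), and the adjusted p ran from 6.54e-10 to 0.199 over the alternatives. At 72 h it passed in DESeq2 (adjusted p = 0.0285), in a fit of the compared groups alone (0.0391) and with no filter on low counts, with a range of 4.79e-06 to 0.175. *Kcnj16* was at 105, 70.2 and 64.2 CPM at 24 h with TNF, around the untreated libraries, and at 122, 154 and 139 CPM at 72 h, below all of them (log2 -0.45 ± 0.16, adjusted p = 0.0801). Per length *Kcnj16* was at 0.518 to 0.550 times *Kcnj10* at 24 h with TNF, above the 0.185 to 0.353 without it, and the 72 h ranges of 0.738 to 1.03 and 0.467 to 0.984 overlapped.

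*Mlc1* was at 1032, 1158 and 1305 CPM at 24 h with TNF, overlapping the untreated libraries, and at 909, 1499 and 1625 CPM at 72 h with TNF, below the lowest untreated library at 1674 CPM. The 72 h difference was -0.66 ± 0.19 on the log2 scale, so that untreated cells stood 1.58-fold higher (adjusted p = 0.0378). That call was lost without 72 h replicate 2 (0.126) or 3 (0.193), without 72 h TNF replicate 1 (0.157) or 2 (0.0504), in a fit of the compared groups alone (0.138), and with the replicate block that leaves 72 h replicate 3 unpaired (0.129), with a range of 0.000366 to 0.193. *Hepacam*, its partner, was at 307, 239 and 267 CPM at 24 h with TNF, below all untreated libraries (log2 -0.45 ± 0.15, adjusted p = 0.136), and at 380, 267 and 292 CPM at 72 h, where replicate 1 overlapped them (-0.36 ± 0.15, adjusted p = 0.144). Of the 9 astrocyte markers 4 passed as lower with TNF at 72 h and 5 did not pass, where 5.21% of all genes were lower. Their sums were 3187 to 4247 CPM against 5305 to 7408 CPM, and *Gfap* alone had means of 489 and 2432 CPM. *Aldh1l1* was higher with TNF without passing (log2 0.59, adjusted p = 0.225). The part of the markers in the 72 h differences was not tested.

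*Aqp4*, with the wide spread between TNF replicates given above, did not pass at either time. Its difference was 0.66 ± 0.38 at 24 h (adjusted p = 0.498), where all 3 TNF libraries lay above the untreated ones, and -0.43 ± 0.38 at 72 h (adjusted p = 0.507). Over the alternatives the adjusted p ran from 0.000744 to 0.938 at 24 h and from 0.0628 to 0.778 at 72 h. At 24 h *Aqp4* passed as higher only with no filter on low counts (log2 0.66 ± 0.15). The SE was 0.38 in the main fit, so that call reflects little of the spread between replicates of *Aqp4*. *Dag1* was at 571, 427 and 472 CPM at 24 h with TNF and at 658, 626 and 690 CPM at 72 h, where it lay above all untreated libraries (log2 0.25 ± 0.13, adjusted p = 0.249). *Dtna* was at 506, 501 and 466 CPM and at 581, 603 and 557 CPM, overlapping the untreated libraries at both times, with differences of -0.05 ± 0.10 at each.

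Without replicate 1 of both TNF groups, a choice made after the data were seen, 2 members passed at 24 h, *Kcnj10* (log2 -1.29 ± 0.30, adjusted p = 0.0211) and *Hepacam* (-0.55 ± 0.14, adjusted p = 0.0386). At 72 h *Hepacam* passed (-0.53 ± 0.14, adjusted p = 0.0251) and *Mlc1* no longer did (-0.45 ± 0.17, adjusted p = 0.106). *Aqp4* was then at 0.15 ± 0.34 at 24 h and -0.79 ± 0.35 at 72 h (adjusted p = 0.913 and 0.185). *Kcnj10* at 72 h was -0.88 ± 0.30 (adjusted p = 0.0786).

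**Figure D5:**
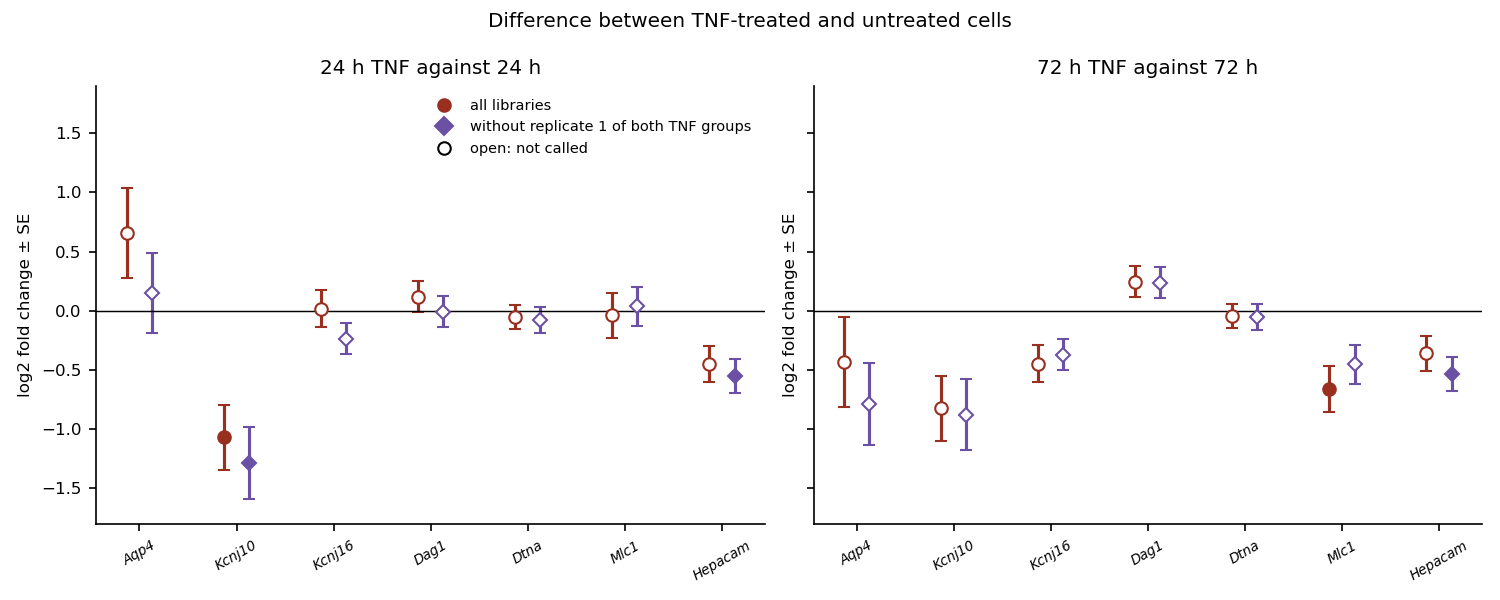
Log2 difference between TNF-treated and untreated cells (y axis) at 24 h and 72 h for the 7 genes, with standard errors as whiskers, from all 18 libraries (circles) and without replicate 1 of both TNF groups (diamonds). Filled points passed the test, and *Kcnj10* lies between -1.29 and -0.83 in all 4 estimates, *Hepacam* below 0 in all 4 and *Dtna* near 0.

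Whether the TNF difference changed with time was tested as an interaction. None of the 7 members passed in edgeR, where 0.458% of all genes did (0.135% higher and 0.324% lower), or in DESeq2, and 1, *Mlc1*, had an unadjusted p-value under 0.05 in each tool. Its interaction was -0.62 ± 0.27 on the log2 scale (adjusted p = 0.455), and that of *Aqp4*, the largest in size, was -1.09 ± 0.54 (adjusted p = 0.518), with a range of 9.14e-05 to 0.951 over the alternatives, in which it passed only where no filter on low counts was used. Without replicate 1 of both TNF groups the interactions were -0.49 ± 0.23 for *Mlc1* and -0.94 ± 0.48 for *Aqp4* (adjusted p = 0.507 and 0.544). The calls of *Kcnj10* at 24 h and *Mlc1* at 72 h are thus not shown to be specific to their times.

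Between 24 h and 72 h within TNF, 2 members rose, where 13.3% of all genes passed, 5.38% higher and 7.93% lower. *Kcnj16* rose 1.74-fold (log2 0.80 ± 0.16, adjusted p = 0.00265), with no overlap of the 64.2 to 105 CPM at 24 h and the 122 to 154 CPM at 72 h, and *Dag1* rose 1.34-fold (log2 0.43 ± 0.13, adjusted p = 0.0362). Replicates of the same number deviated together in this comparison, and with the replicate number as a block *Dag1* did not pass (0.43 ± 0.14, adjusted p = 0.0512), leaving 1 call, nor did it with 72 h replicate 3 unpaired in the block (0.0545). It was also lost without any 1 of the 24 h TNF replicates 2 and 3 (0.162 and 0.129) or the 72 h TNF replicates 1 to 3 (0.0524, 0.0587 and 0.119), and both calls were lost in a fit of these groups alone (0.0536 for *Kcnj16*). Without replicate 1 of both TNF groups both genes passed, *Dag1* at 0.56 ± 0.14 (adjusted p = 0.0112) and *Kcnj16* at 1.14 ± 0.14 (adjusted p = 2.19e-05). Over the alternatives the adjusted p ran from 0.00542 to 0.161 for *Dag1* and from 5.26e-06 to 0.0536 for *Kcnj16*. *Mlc1*, which rose without TNF in this interval, was 0.21 ± 0.19 with it (adjusted p = 0.547).

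In the lists around the members 2 of 68 tested genes passed under TNF at 24 h and 6 at 72 h, shares near the 3.5% and 9.56% of all genes. In the dystrophin complex 0 of 13 tested genes passed at 24 h, and at 72 h 1 was higher and 2 were lower. Of the dystroglycan ligands *Hspg2*, perlecan, alone passed, at 72 h, with 289, 147 and 261 CPM against 87.3, 50.3 and 28.2 CPM (log2 2.07 ± 0.42, adjusted p = 0.00291). None of the 18 glycosylation genes passed at either time. *Aqp11* was lower at 24 h, at 10.7, 18.8 and 20.6 CPM against 27.8 to 31.4 CPM (log2 -0.81 ± 0.18, adjusted p = 0.016). Of the potassium channel genes *Kcnj9* was lower at 24 h (log2 -0.999 ± 0.24) and *Kcnk10* higher at 72 h (1.16 ± 0.30), and of the ion and volume genes *Atp1b1* was lower at 72 h (-0.79 ± 0.18, adjusted p = 0.00989).

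In order of mean level, neighboring conditions mostly overlapped. *Aqp4* ran NSPs, 1 week, 24 h, 72 h with TNF, 24 h with TNF and 72 h, with separate ranges only between 1 week and 24 h and between 24 h and 72 h with TNF. *Kcnj10* ran NSPs, 24 h with TNF, 72 h with TNF, 72 h, 24 h and 1 week, with gaps after the NSPs and between TNF-treated and untreated cells. *Kcnj16* had 1 gap, between both 24 h groups and all the rest. *Dag1* had gaps above the NSPs and below 72 h with TNF, its highest condition. *Dtna* had 3 gaps, which set NSPs, both 24 h groups, both 72 h groups and 1 week apart. *Mlc1* had 1 gap, between 72 h with TNF and 1 week, since 72 h TNF replicate 1 (909 CPM) lay within the range of the NSPs, and *Hepacam* had none.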

How the data were processed

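The authors depleted ribosomal RNA from total RNA and sequenced 18 libraries, and they deposited raw counts per gene without normalization, in 1 table whose columns were all used. The submitters' processing notes name Trim Galore, STAR, SAMtools, featureCounts and mm10. Whether counting used strand, and how reads shared by genes were counted, is not given in the sources used here, and RNA quality numbers (3.4 to 10) are given for the series only. Conditions came from the labels. Depth was 12509693 to 22549627 counts per library, and it covers counting error only, since reads carry no molecular identifiers. No replicates were duplicates (chi-square per degree of freedom of 4.08 or more).

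With edgeR 4.0.16 (limma 3.58.1, R 4.3.3) TMM factors, filterByExpr by condition and 1 quasi-likelihood fit over 18 libraries were used for 20067 genes and 9 comparisons (two-sided). The SE is the log2 fold change over the square root of F. Log2 CPM had a prior count of 2. Gene positions and exon lengths are from GENCODE M21 (GRCm38), which holds 54809 of the 54838 identifiers. Scripts were tested on simulated data. Alternatives were RLE factors, DESeq2 1.42.0, no filter, at least 10 counts in every library, the compared groups alone, a replicate block, and leaving out each library. The labels number replicates 1 to 3 in each condition. The main fit used no pairing in any comparison, and the replicate block was applied to all 6 conditions. Between the TNF groups alone all deviations of same-numbered libraries from their group means correlated above 0.1, at 0.291, 0.255 and 0.266. These 3 values are not independent of each other, and every other comparison had a pair at or under 0.1. Lists and figures used Python 3.11.15, pandas 2.3.3, numpy 2.4.6 and matplotlib 3.10.9. The members and lists were chosen with earlier results of these data known. All members are named, and from each list the 4 at most whose group means ranged widest, at a mean CPM of 1 or more. Other list genes (*Utrn*, *Dmd*, *Lamb2*, *Agrn*, *Aqp1*, *Aqp5*, *Dpm1*, *Dpm2*) were chosen after their values were seen. Some list genes are not reported here.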

Additional observations from a re-analysis of the deposited data

How the results depend on the processing

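Of the comparisons of single members with each alternative, 812 kept their direction and their side of the threshold, 30 lost a call, 20 gained one and 27 turned direction. The number of members passing changed by over 1.5 times as follows. With DESeq2 it was 2 for 1 week against 72 h and 2 for TNF at 72 h. With no filter on low counts it was 2 for 1 week against 72 h, 2 for TNF at 24 h, 2 for TNF at 72 h and 1 for the interaction. In the comparisons of 2 groups where that fit changed a call its SE was 0.147 to 0.151 for *Mlc1*, *Aqp4* and *Kcnj10*. The pooled SDs of these genes were 0.26, 0.59 and 0.39. Its added calls, with the lowest adjusted p-values of several ranges above, thus reflect little of each gene's own spread. With at least 10 counts in every library it was 0 for TNF at 24 h, and with the compared groups alone 0 for 72 h TNF against 24 h TNF. The replicate block gave 1 for 72 h TNF against 24 h TNF, and changed 1 other call, *Mlc1* at 24 h against NSPs (log2 0.48, adjusted p = 0.0323). The block with 72 h replicate 3 unpaired, added after the data were seen because its column is numbered 4, gave 1 for 72 h TNF against 24 h TNF and 0 for TNF at 72 h. Without replicate 1 of both TNF groups, also added, it was 2 for TNF at 24 h. Leaving out 1 library gave 0 to 1 for TNF at 24 h, 0 to 1 for TNF at 72 h and 1 to 2 for 72 h TNF against 24 h TNF. The causes were not tested.

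The changes of direction were in differences that passed in no setting concerned. Leaving out 1 library gave log2 ranges of -0.19 to 0.093 for *Mlc1* (1 week against 72 h), -0.071 to 0.60 for *Aqp4* (1 week against NSPs), -0.44 to 0.049 for *Kcnj10* (72 h against 24 h), and -0.036 to 0.050 for *Dtna* and -0.068 to 0.21 for *Hepacam* (interaction). For TNF at 24 h the ranges were -0.023 to 0.21 for *Dag1*, -0.25 to 0.15 for *Kcnj16* and -0.14 to 0.044 for *Mlc1*, and for 72 h TNF against 24 h TNF they were -0.36 to 0.50 for *Aqp4* and -0.061 to 0.31 for *Kcnj10*. Without replicate 1 of both TNF groups *Dag1* was -0.0096, *Kcnj16* -0.24 and *Mlc1* 0.037 for TNF at 24 h, and *Aqp4* 0.13 for 72 h TNF against 24 h TNF. With the unpaired block *Mlc1* was 0.072 (1 week against 72 h) and *Dtna* -0.035 (interaction), where DESeq2 gave -0.0014.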
